A study of Homo sapiens with 12 samples.

Results

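The regions described here are CTCF binding regions that were found in cells of the ΔWAPL lineage and not outside it. The 4 lists of CTCF peaks were merged wherever intervals overlapped by at least 1 bp, and a region was a member when it held a peak in ΔWAPL and in ΔWAPL/ΔSCC4 cells but none in wild-type or ΔSCC4 cells. Of 53945 CTCF regions, 2756 (5.11%) were members. They were chosen by the presence of CTCF peaks in the lists, so the presence and strength of these peaks are a description. The peaks came from sequencing of immunoprecipitated chromatin (ChIP-seq) in HAP1 cells, a leukaemia line with a nearly haploid genome. CTCF, the cohesin subunit SMC1 or non-specific IgG was precipitated in untreated wild-type cells, in a ΔWAPL clone (WaplKO_3.3, made by CRISPR with insertion of a blasticidin cassette), in ΔSCC4 cells (SCC4KO, with a puromycin cassette) and in ΔWAPL/ΔSCC4 cells (DKO_3.3), which were made by removing SCC4 from the ΔWAPL cells. Each of the 12 combinations was 1 library, so no test was made between genotypes. Loss of WAPL, descent from the same clone and the cassette cannot be told apart, since the ΔWAPL and ΔWAPL/ΔSCC4 cells share all of them.

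CTCF is a zinc-finger protein that binds an asymmetric DNA motif at loop anchors and domain boundaries. Cohesin is a ring-shaped complex that holds chromatin loops and is often found at CTCF sites. WAPL releases cohesin from DNA, and SCC4 (MAU2), with its partner SCC2 (NIPBL), loads it. The CpG dinucleotide is the place where human DNA is methylated, and the CTCF motif can hold one.

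The strongest members, ranked by the smaller of their fold enrichments in ΔWAPL and ΔWAPL/ΔSCC4 cells, show which DNA carried these peaks. A motif of 19 bases learned from CTCF regions found in all 4 genotypes had the consensus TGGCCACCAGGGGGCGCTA. Below are its matches in 5 of the first 6 members and, for comparison, in the strongest region with a peak in wild-type and ΔSCC4 cells only. Each is given 5′ to 3′ on the strand of the match with 20 bases on each side, and capitals mark the match (genome build hg19).
chr4:189294196-189294254 (minus strand): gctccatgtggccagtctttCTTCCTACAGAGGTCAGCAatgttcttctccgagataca
chr12:91347781-91347839 (plus strand): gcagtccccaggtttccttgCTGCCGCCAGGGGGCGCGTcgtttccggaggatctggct
chr3:152628180-152628238 (minus strand): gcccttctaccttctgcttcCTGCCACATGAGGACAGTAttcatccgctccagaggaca
chr6:137487327-137487385 (minus strand): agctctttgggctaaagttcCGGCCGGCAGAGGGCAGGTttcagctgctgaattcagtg
chr13:81626185-81626243 (minus strand): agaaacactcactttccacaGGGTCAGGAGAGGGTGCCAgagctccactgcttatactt
wild-type and ΔSCC4 only, chr16:85513954-85514012 (plus strand): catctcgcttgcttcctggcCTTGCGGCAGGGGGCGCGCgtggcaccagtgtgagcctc
The log-odds scores of the members' 5 matches ran from 7.75 on chromosome 4 to 18.9 on chromosome 12, against a threshold of 5.42 that 5% of flanking windows reached. A CpG was present in the matches on chromosomes 12 and 6, and absent from those on chromosomes 4, 3 and 13.

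These 5 regions had similar CTCF fold enrichments in the ΔWAPL and ΔWAPL/ΔSCC4 lists, except on chromosome 4. Fold enrichment is the ratio of summit reads to the background around them, after 1 read is added to either. At chr4:189294076-189294398, an intergenic region, it was 28.9 in ΔWAPL (122 reads over a background of 3.26) and 20.1 in ΔWAPL/ΔSCC4 cells (70 reads over 2.53), and SMC1 peaks of 12.9 and 12.5 lay there in the same genotypes. At chr12:91347632-91348080, in a coding exon of CCER1 and 372 bp from its start, CTCF was at 16.5 and 18.5 and SMC1 at 13.2 and 8.63. At chr3:152628045-152628366, 75310 bp from the start of P2RY1, which encodes a purinergic receptor for ADP, CTCF was at 16.1 and 16.6 and SMC1 at 6.28 and 8.81. None of these 3 regions had an SMC1 peak in wild-type or ΔSCC4 cells.

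The other pair differed in cohesin. At chr6:137487180-137487552, in an intron of IL22RA2, the gene of a soluble receptor for interleukin 22, CTCF was at 14.5 and 14.8 and SMC1 at 7.44 and 7.39. At chr13:81626031-81626399, intergenic, CTCF was at 14.4 and 14.2, and SMC1 was called in ΔWAPL only, at 7.45. A missing peak does not give a level of 0. With the smallest −log10 p in the wild-type and ΔSCC4 lists taken as their calling limits, and the local background scaled by depth, the depth-scaled signal in the ΔWAPL lineage was at least 6.22, 5.30, 4.65, 4.48 and 4.33 times the highest uncalled level at the 5 regions, in the order of their sequences above.

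For most members that bound was low. The smaller signal over the higher limit had a median of 1.47 (quartiles 1.28 to 1.76) across the 2756 members, and reached 2 at 427 of them (15.5%). The median CTCF fold enrichment of the members was 5.91 in ΔWAPL (quartiles 5.06 to 7.34, 15 reads at the median summit) and 5.76 in ΔWAPL/ΔSCC4 cells (4.91 to 7.04, 14 reads). CTCF regions found in all 4 genotypes had medians of 13.6 and 13.5. By −log10 q, the median member ranked at percentile 16 of the ΔWAPL list and 16.5 of the ΔWAPL/ΔSCC4 list, and 60 and 27 members lay in the upper part of these lists, above the 50th percentile. Fold enrichments of 10 or more were reached by 172 members in ΔWAPL and by 113 in ΔWAPL/ΔSCC4 cells.

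The threshold was the presence of a peak. Among the members' peaks, the lowest fold enrichment was 1.45 and the lowest −log10 q was 1.31. On the other side were the 4326 regions with peaks in both lists of the lineage and in 1 other list. In that other list they had a median fold enrichment of 6.10, with a lowest value of 1.59 and a lowest −log10 q of 1.53. The nearest wild-type CTCF peak lay within 500 bp of 60 members and the nearest ΔSCC4 peak within 500 bp of 53, and the median distances were 14.4 and 16.1 kb. The depth-scaled summit signal did not differ much between the lists of the lineage, with a median log2 ratio of ΔWAPL over ΔWAPL/ΔSCC4 of -0.02 (quartiles -0.33 to 0.32). At regions found in all 4 genotypes this log2 ratio was -0.17 (-0.36 to 0.05).

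**Figure D1:**
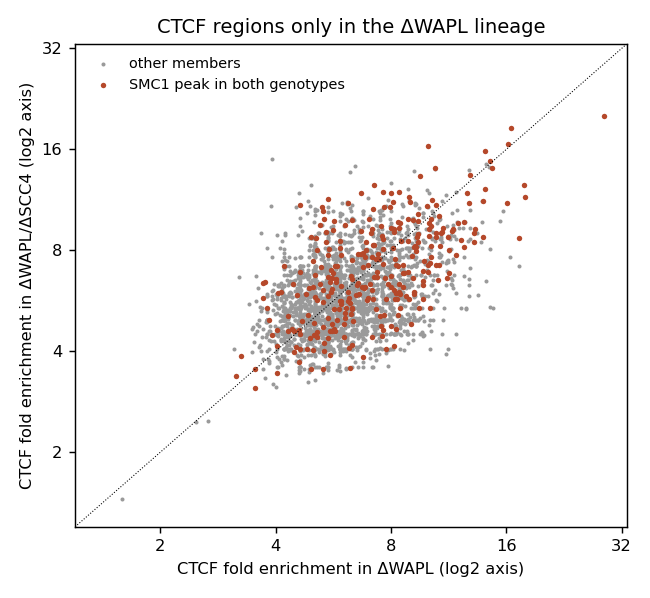
CTCF fold enrichment of each member in ΔWAPL (horizontal) and ΔWAPL/ΔSCC4 cells (vertical), both on log2 axes, with the diagonal dotted. Each point is 1 of the 2756 regions, red where an SMC1 peak was called in both genotypes (295 regions), and most points sit near the medians of 5.91 and 5.76 with few at 10 or above.

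How many such regions there are depended on the lengths of the lists. The deposited CTCF lists held 47608 peaks for ΔWAPL/ΔSCC4, 45798 for ΔWAPL, 43050 for wild-type and 37625 for ΔSCC4 cells, at an average coverage of 7.09, 8.41, 6.53 and 7.42 reads per kb as recovered from the background of the peaks. The lineage thus had the longest lists, and ΔWAPL the deepest library. The opposite pattern, a peak in wild-type and ΔSCC4 cells only, was found in 253 regions. With each list reduced to its 37625 strongest peaks by −log10 q, the counts were 1015 and 860, so that most of the difference was gone. Raising the threshold of all lists kept the difference, with 2365 against 224 at a −log10 q of at least 5 and 1867 against 141 at 10. Where a −log10 q of 10 was asked of the members only, and absence was judged on the full lists, 454 remained.

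**Figure D2:**
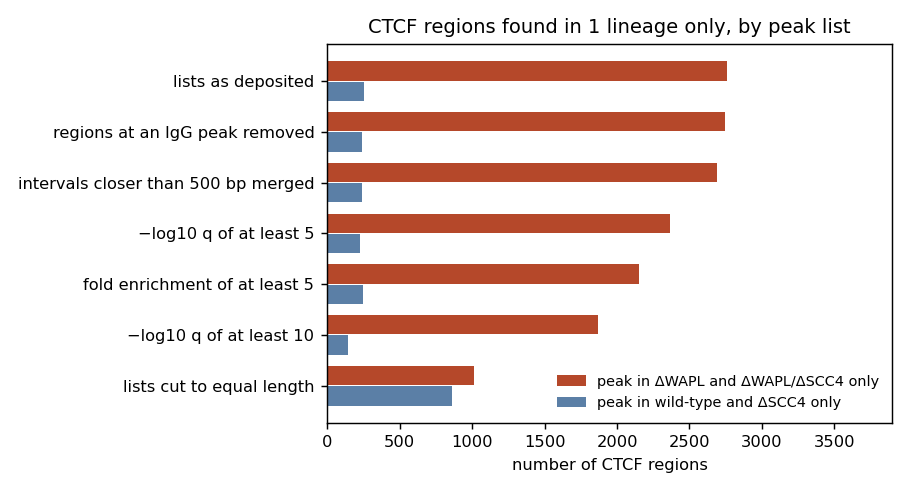
Number of CTCF regions with a peak in the ΔWAPL lineage only (red) and in wild-type and ΔSCC4 cells only (blue) under 7 treatments of the peak lists. The red bars run from 2756 to 1867 in the first 6 treatments and fall to 1015 with lists of equal length, where the blue bar rises to 860.

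Some members also had a cohesin peak, mostly in the ΔWAPL lineage. An SMC1 peak overlapped 769 members in ΔWAPL (27.9%, 95% Wilson interval 26.3 to 29.6), where 52.8% of all CTCF regions had one. In ΔWAPL/ΔSCC4 cells it overlapped 429 (15.6%, 14.3 to 17), against 46.5% of all regions. Both shares were below those of CTCF regions in general, and those of the other genotypes were lower still. In wild-type cells the count was 45 (1.63%, 1.22 to 2.18), against 32.8%, and in ΔSCC4 cells 27 (0.980%, 0.674 to 1.42), against 22.9%. These intervals cover counting error only, not the error between libraries. The SMC1 lists were also unequal, with 33952 peaks for ΔWAPL, 26558 for ΔWAPL/ΔSCC4, 18542 for wild-type and 12779 for ΔSCC4 cells. More SMC1 in the lineage was not particular to the members. Regions with CTCF in all but ΔSCC4 cells had SMC1 at 35.5% (ΔWAPL) and 24.7% (ΔWAPL/ΔSCC4), against 5.90% (wild-type). There, wild-type cells had the CTCF peak too. Regions with CTCF in ΔWAPL/ΔSCC4 alone had SMC1 at 7.91% in ΔWAPL and 5.16% in ΔWAPL/ΔSCC4 cells.

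Among the members, 464 (16.8%) had SMC1 in ΔWAPL alone, 263 (9.54%) in ΔWAPL and ΔWAPL/ΔSCC4 cells only, and 129 (4.68%) in ΔWAPL/ΔSCC4 cells alone, while 1842 (66.8%) had none in any genotype. Over all CTCF regions these shares were 9.46%, 10.2%, 4.06% and 41.1%, so that the members were more often without SMC1 or with SMC1 in ΔWAPL alone. No member had SMC1 in wild-type and ΔSCC4 cells only, which allows a share of up to 0.109%, and 0.0723% of all CTCF regions did. Of the 11001 ΔWAPL SMC1 peaks at a ΔWAPL CTCF peak with no wild-type counterpart, 730 (6.64%) were at members. For scale, the members were 2756 regions beside 45798 ΔWAPL CTCF peaks, and 5.11% of all CTCF regions. The 6.64% is thus not read as a trait of the members. Where SMC1 was called at a member in both genotypes of the lineage, its fold enrichment was higher in ΔWAPL at 206 of 295 regions (69.8%, 64.4 to 74.8). For comparison, regions found in all 4 genotypes were taken whose ΔWAPL CTCF fold enrichment lay within the members' quartiles, as set out next. There SMC1 was higher in ΔWAPL at 289 of 506 (57.1%, 52.8 to 61.4). The 295 members were of any strength, and CTCF in ΔWAPL/ΔSCC4 cells was not matched, so these groups were not of like strength.

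Since members were weak CTCF peaks, they were also set beside regions of like strength. The 3253 regions found in all 4 genotypes whose ΔWAPL fold enrichment lay between 5.06 and 7.34, the members' quartiles, had SMC1 at 30.4% (ΔWAPL, 28.8 to 32) and 22.3% (ΔWAPL/ΔSCC4, 20.9 to 23.7). The 1396 members in that range had it at 22.1% (20 to 24.3) and 13.6% (11.9 to 15.5). For wild-type and ΔSCC4 the shares were 11.2% (10.1 to 12.3) and 6.98% (6.15 to 7.91) at these regions, against 1.58% (1.04 to 2.37) and 0.645% (0.340 to 1.22) at the members. The members were lower in each genotype, by the widest ratio in wild-type and ΔSCC4 cells, where they had no CTCF peak. These groups were matched in ΔWAPL only, and the median ΔWAPL/ΔSCC4 fold enrichment was 7.17 at the regions found in all 4 genotypes and 5.69 at the members. With both groups split by the smaller fold enrichment, the members' ΔWAPL share was lower in each range. Below 4.51 it was 23.7% (20.5 to 27.3), against 33.1% (28.6 to 37.9) of regions in all 4 genotypes. From 4.51 to 5.16 it was 19.2% against 24.9%. From 5.16 to 6.12 it was 26.7% (23.6 to 30.2) against 28.4% (26.2 to 30.6). The intervals overlapped in these middle ranges only. From 6.12 to 20.1, a wide range, the share was 42.5% against 74.1%. Where SMC1 was called, its median fold enrichment in ΔWAPL was 5.31 at all members. It was 5.04 at the 1396 members between 5.06 and 7.34, and 5.09 at the 3253 regions of like strength.

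The regions with CTCF in wild-type and ΔSCC4 cells only did not mirror the members in the lists as deposited. Their SMC1 shares were 3.16% (1.61 to 6.11) for wild-type and 2.77% (1.35 to 5.60) for ΔSCC4, against 7.11% (4.55 to 11) for ΔWAPL and 3.56% (1.88 to 6.62) for ΔWAPL/ΔSCC4, so that the highest share was in a genotype without the CTCF peak. With the CTCF and SMC1 lists cut to equal lengths, SMC1 followed CTCF in both directions. The members then had SMC1 at 8.28% (ΔWAPL) and 6.31% (ΔWAPL/ΔSCC4), against 0.296% (wild-type) and 0.985% (ΔSCC4). The opposite regions had it at 3.02% (wild-type) and 4.30% (ΔSCC4), against 1.16% in each genotype of the lineage.

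**Figure D3:**
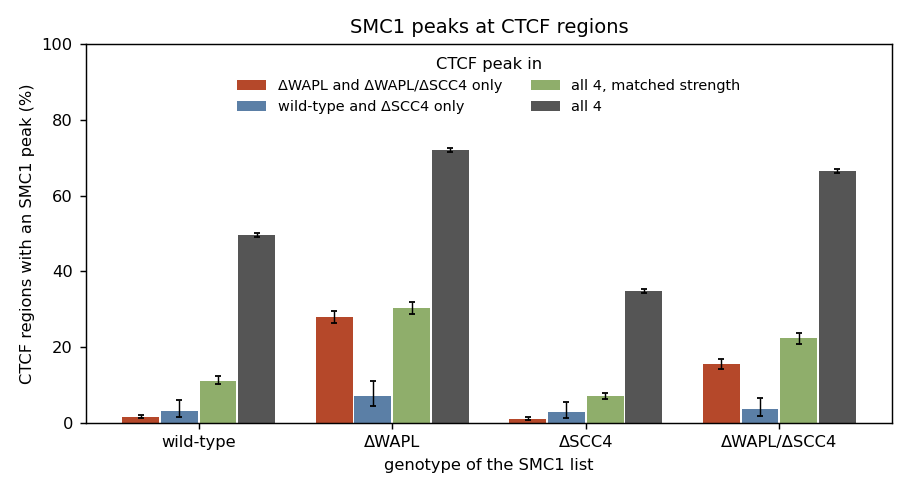
Share of CTCF regions that overlapped an SMC1 peak (vertical, percent) in each genotype's SMC1 list (horizontal), with 95% Wilson intervals as error bars, for members (red), regions in wild-type and ΔSCC4 only (blue), regions in all 4 genotypes within the members' quartiles of strength (green) and regions in all 4 (grey). The red bars are at 27.9% and 15.6% in the ΔWAPL lineage and at 1.63% and 0.980% elsewhere.

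Within the members, SMC1 was most frequent at the strongest CTCF peaks, at gene starts and at motifs with a CpG. Of the 691 members whose smaller fold enrichment was 6.12 or more, 42.5% (38.9 to 46.3) had SMC1 in ΔWAPL and 28.4% (25.1 to 31.8) in ΔWAPL/ΔSCC4 cells. In the 3 weaker groups cut at the quartiles of that value, the shares were 26.7%, 19.2% and 23.7% in ΔWAPL and 14.7%, 8.64% and 10.8% in ΔWAPL/ΔSCC4 cells, from stronger to weaker. Members with a summit within 1 kb of a transcript start had SMC1 in ΔWAPL at 51.8% (47.0 to 56.6), against 23.7% (22 to 25.5) of those farther away. In wild-type cells the same split gave 7.75% (5.54 to 10.7) and 0.512% (0.293 to 0.893). Members with a motif match that held a CpG had SMC1 in ΔWAPL at 43.6% (39.3 to 48.1), and those with a match without CpG at 26.3% (23.9 to 28.7). Regions found in all 4 genotypes differed in the same directions, with SMC1 in ΔWAPL at 80% and 70.1% near and far from starts, at 85.7% and 70.4% with and without a CpG, and at 74.1% where the smaller fold enrichment was between 6.12 and 20.1.

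The share of members with a CTCF motif depended on the score asked for. On the even-numbered chromosomes, which were not used to learn it, 842 of 1306 members (64.5%, 61.8 to 67.0) had a match within 50 bp of the summit, against 74.7% of all CTCF regions. With the stricter threshold that 1% of flanking windows reached, 42.2% (39.5 to 44.9) had one. At the first threshold the share was 85.5% in regions found in all 4 genotypes, 63.2% (60.8 to 65.6) in those of like strength and 43.8% (35.3 to 52.7) in regions with CTCF in wild-type and ΔSCC4 cells only. The members thus had the motif about as often as other regions of their strength, with overlapping intervals. Regions called in ΔWAPL/ΔSCC4 alone matched at 51.2% (48.9 to 53.5) and in ΔWAPL alone at 53.5% (50.7 to 56.2). Within the members the share rose with strength, from 54.4% (48.5 to 60.2) in the weakest of these 4 groups to 72.1% (67.1 to 76.6) in the strongest. Matches lay on the plus strand at 50.3% (47.9 to 52.6), and the centre of the match was 15 bp from the summit at the median.

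The members' matches held a CpG less often than those of other regions. Of 1781 matches, 479 (26.9%, 24.9 to 29.0) had at least 1 CpG within the 19 bases, against 39.5% over all CTCF regions, 41.6% (41.0 to 42.1) in regions found in all 4 genotypes and 37.4% (35.3 to 39.5) in those of like strength. In the regions with CTCF in wild-type and ΔSCC4 cells only, it was 44.7% (35.9 to 53.9). Most of the gap to the regions found in all 4 genotypes lay at position 15, where the consensus has CG. A CpG started there in 14.9% of the members' matches (13.4 to 16.7), in 28.8% (28.3 to 29.3) of those found in all 4 genotypes and in 24.6% (22.7 to 26.5) at like strength. At position 5, the next most frequent place, the shares were 7.41% (6.28 to 8.72), 10.0% (9.67 to 10.4) and 9.39% (8.19 to 10.7). In the 114 matches of regions with CTCF in wild-type and ΔSCC4 cells only, the share was 16.7% (10.9 to 24.6) at either position.

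**Figure D4:**
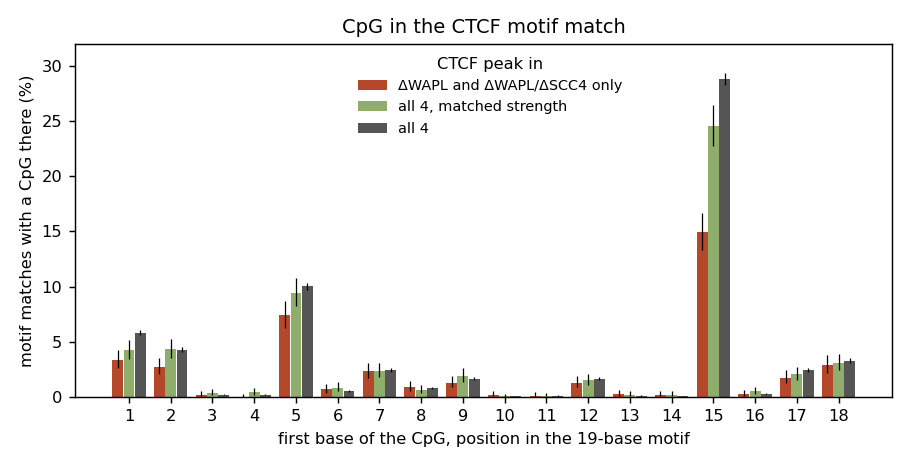
Share of CTCF motif matches (vertical, percent, 95% Wilson intervals) in which a CpG starts at each position of the 19-base motif (horizontal), for members (red), regions in all 4 genotypes of like strength (green) and regions in all 4 (grey). At position 15 the members are at 14.9% and the other groups at 24.6% and 28.8%.

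The lower CpG share was not particular to the members. Regions called in ΔWAPL alone had a CpG in 26.5% of matches (24.3 to 28.8), and regions called in ΔWAPL/ΔSCC4 alone in 37.1% (35.0 to 39.3). Of the 14 patterns of presence other than a peak in all 4 lists, the 7 with a ΔWAPL peak ran from 26.5% to 36% and the 7 without one from 36.6% to 44.8%. The ends that nearly met were small groups with overlapping intervals, 36% of 100 matches (27.3 to 45.8) and 36.6% of 153 (29.4 to 44.5). Regions found in all 4 genotypes, which also had a ΔWAPL peak, were at 41.6%. Outside them, the lower shares went with a peak in the ΔWAPL CTCF library. In that library the local background, scaled to the wild-type library at regions found in all 4 genotypes, was highest on the AT-rich chromosome 4 (median log2 ratio 0.07) and lowest on the GC-rich chromosome 19 (-0.10). In ΔSCC4 these log2 ratios ran from -0.07 on chromosome 16 to 0.05 on chromosome 4, and in ΔWAPL/ΔSCC4 cells from -0.01 to 0.01. The part of this difference between libraries in the CpG share was not tested. With all CTCF regions split into 4 groups by the GC content of the surrounding 100 kb, cut at 38.7%, 42.0% and 46.7%, members were lower than regions of all 4 genotypes at like strength in the first group (16.9% against 26.3%), the second (21.4% against 31.2%), the third (34.3% against 41.0%) and the fourth (41.9% against 48.4%), and the intervals overlapped in the third and the fourth only.

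The members were less often at gene starts than CTCF regions in general, as were some other patterns. A transcript start was within 1 kb of 413 of the 2755 members on annotated chromosomes (15%, 13.7 to 16.4), against 19.5% of all CTCF regions, 20.1% (19.7 to 20.5) of those in all 4 genotypes and 23% (21.6 to 24.5) of those of like strength. The median distance to the nearest start was 10.2 kb (quartiles 2.79 to 29.7), and 6.63 kb (1.61 to 19.3) for regions in all 4 genotypes. Introns and intergenic DNA held most of the members, as for CTCF regions found in all 4 genotypes. By their summits, 1411 members (51.2%) were in introns, 1048 (38.0%) were intergenic, 123 (4.46%) were in non-coding exons, 100 (3.63%) in UTRs and 73 (2.65%) in coding exons. Regions found in all 4 genotypes had 51.9% in introns and 36.4% between genes.

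Gene-poor chromosomes held more of them. The share of CTCF regions that were members was highest on chromosome 13 (116 of 1434, 8.09%, 6.79 to 9.62) and chromosome 4 (204 of 2916, 7.00%, 6.13 to 7.98), and lowest on chromosome 19 (37 of 1800, 2.06%, 1.49 to 2.82) and chromosome 17 (67 of 2145, 3.12%, 2.47 to 3.95), without chromosome Y and the mitochondrial genome, which held 2 members and 1. Across the 23 chromosomes it fell with the number of protein-coding genes per Mb (Pearson's r -0.85, Spearman's rho -0.90) and with GC content (-0.82 and -0.77). The chromosomes share the same libraries, and gene density and base composition go together, so these correlations are descriptions. In the 4 groups by surrounding GC, from the lowest to the highest, members made up 6.82% (6.40 to 7.25), 5.46% (5.09 to 5.86), 4.61% (4.26 to 4.97) and 3.55% (3.25 to 3.88). Regions called in ΔWAPL alone fell likewise, from 6.44% (6.04 to 6.86) to 3.86% (3.54 to 4.19), and those called in ΔWAPL/ΔSCC4 alone went from 8.14% (7.69 to 8.62) to 6.0% (5.61 to 6.41). The part of the libraries' backgrounds in these shares was not tested.

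**Figure D5:**
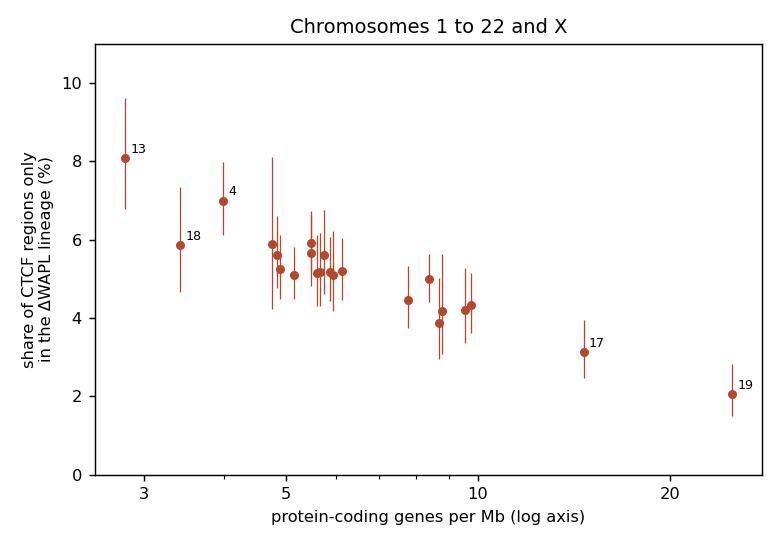
Share of the CTCF regions of each chromosome that were found only in the ΔWAPL lineage (vertical, percent, 95% Wilson intervals) against protein-coding genes per Mb (horizontal, log axis), for chromosomes 1 to 22 and X, with the extreme ones numbered. The share is 8.09% on chromosome 13 and 2.06% on chromosome 19.

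Members were next to other members about as often as any CTCF region was. The next CTCF region on either side was also a member for 295 of them (10.7%, 9.60 to 11.9), and 9.88% of all CTCF regions had a member beside them. There were 131 pairs, 8 runs of 3, 1 of 4 and 1 of 5. The run of 5 lay at chr14:47130965-47514405, from 10153 bp outside RPL10L, a ribosomal protein gene, into MDGA2, which encodes a membrane-anchored adhesion protein of neurons. Its fold enrichments ran from 6.33 to 11.6 (ΔWAPL) and from 4.50 to 11.1 (ΔWAPL/ΔSCC4), 1 of the 5 had a motif match, and the last pair had SMC1 peaks of 5.10 and 5.34 in ΔWAPL and 5.09 and 5.37 in ΔWAPL/ΔSCC4 cells. The local background of the 7 regions found in all 4 genotypes within 1 Mb was raised in ΔWAPL by a median log2 ratio of 0.28 over wild-type, against 0.04 in ΔWAPL/ΔSCC4 cells. The run of 4 was at chr4:48907502-48945748, with a member 51 bp from the start of OCIAD2 that had SMC1 in both genotypes (5.24 and 4.97). The shortest run of 3, at chr4:103541759-103547068, began 8326 bp from the nearest start of NFKB1, the gene of an NF-κB subunit, with fold enrichments of 5.42 to 6.84 in ΔWAPL and 7.64 to 9.49 in ΔWAPL/ΔSCC4 cells.

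At starts of protein-coding genes, strong members besides that at CCER1 were at KCNJ6, HDGFL2, SLC16A12 and TRPM3. The member 35 bp from the start of KCNJ6, an inwardly rectifying potassium channel gene, had CTCF at 12.8 (ΔWAPL) and 13.4 (ΔWAPL/ΔSCC4) and SMC1 at 10 and 4.51, and a wild-type CTCF peak lay 198 bp away. In an intron of HDGFL2, 564 bp from its start, CTCF was at 10.5 and 14 with no SMC1. In a UTR of SLC16A12, a gene of the monocarboxylate transporter family, CTCF was at 9.96 and 12.1 and SMC1 was called in ΔWAPL only, at 9.61, and there was no motif match. The member 41 bp from TRPM3, a cation channel gene, had CTCF at 9.42 and 10.3 and SMC1 at 7.74 and 5.89, also with no motif match.

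Cohesin and the motif could be missing from strong members. Strong members with no SMC1 peak lay at chr14:82580076-82580394 (CTCF at 12.8 and 13.9, intergenic, no motif match), chr9:76896658-76897009 (11.1 and 11.7, intergenic, with a match) and chrX:130539472-130539831 (10.9 and 11.2, an intron of IGSF1, no match). The second strongest without a motif match, in an exon of a non-coding gene within FSTL4 at chr5:132583552-132583965, had CTCF at 12.8 and 11.1 and SMC1 at 9.76 and 7.86. For comparison, the strongest region with CTCF in wild-type and ΔSCC4 cells only, at chr16:85513809-85514216 in an intron of GSE1, had CTCF at 14 and 11.3 and SMC1 at 7.71 and 5.21 in those genotypes, and the next, at chr7:24096863-24097397, had CTCF at 11.8 and 10.8 with neither SMC1 nor a match.

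By gene, 1159 of 20162 protein-coding genes held the summit of at least 1 member, 140 held at least 2 and 27 at least 3. The like counts for all CTCF regions are not given here, so these are descriptions only. MDGA2 held 7 members among its 10 CTCF regions. CREB5 and CDH13, which encode a transcription factor and a cadherin, held 4 each, of 11 and 16 regions. MARCHF1, a ubiquitin ligase gene, and GALNTL6 held 4 of 17 each. Long genes led the list, and the first 8 ran from 527 to 2305 kb. The neuronal adhesion genes LSAMP, NRXN3 and CNTNAP2 held 4 each, of 26, 22 and 26. KLHL6 held 3 of 4, and PTPRZ1, a receptor phosphatase gene, 3 of 5.

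At clustered gene families, and at genes that are often silenced, the counts were too small to set most shares apart from that of all CTCF regions. Within 10 kb of the genes of each list, members were 1 of 51 CTCF regions at the clustered protocadherins, 1 of 30 at the HOX clusters, 2 of 164 at the zinc-finger genes of chromosome 19 and 1 of 57 at 16 genes of cohesin and CTCF regulators, the last at HDAC8, which encodes the deacetylase that recycles cohesin. At 20 imprinted genes it was 3 of 46, at DIRAS3, GNAS and KCNQ1. None were found at the histone cluster genes (0 of 26), at 20 germline genes (0 of 31) or at the X-linked cancer-testis families (0 of 11). Beside the 5.11% of all CTCF regions that were members, the shares ran from 0% to 6.52%, with intervals as wide as 0 to 25.9 where regions were few. Only the interval of the chromosome 19 zinc-finger genes (0.335 to 4.34) lay below 5.11%, and chromosome 19 as a whole was at 2.06%.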

How the data were processed

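The study's methods state that reads of each library were mapped to hg19 with Bowtie2 2.1.0 and that peaks were called per library with MACS2 2.1.1, with IgG as the control. The recovered local backgrounds were, however, whole reads in 10 kb of the same library. The calling threshold was not given in the sources used here. The authors deposited, for each peak, a fold enrichment, which is a ratio, and −log10 p and −log10 q values. Samples were grouped by their titles. The pileup and background behind each peak were solved from its fold enrichment and −log10 p, and reads per kb from the lowest background. Start sites and genes came from GENCODE 44 mapped to GRCh37, and sequence from GRCh37, which has the hg19 chromosomes except the mitochondrial one. The motif was learned from 1000 regions on odd-numbered chromosomes. Shares have 95% Wilson intervals. The named regions were those with the highest smaller fold enrichment, overall and by SMC1, motif, gene start and run, without IgG peaks and on chromosomes 1 to 22 and X. One region that this rule names is not reported here. The members and lists were chosen with earlier results of these data known, and the strata by strength and by GC were added after seeing the data. The scripts were tested on simulated data. Repeat content was not analysed here. Python 3.11.15, pandas 2.3.3 and scipy 1.17.1 were used.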

Additional observations from a re-analysis of the deposited data

Results flagged for a closer look

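Peaks of the IgG control libraries served above only to leave regions out in some steps. They overlapped 8 of the 2756 CTCF regions only in the ΔWAPL lineage (0.290%, 95% Wilson interval 0.147 to 0.572), above the 3 counts that a count of 0 allows. An IgG peak was called at all 8 in ΔWAPL, at 6 in ΔWAPL/ΔSCC4 and in wild-type, and at 3 in ΔSCC4 cells. Over all CTCF regions the share was higher than at the members, at 0.888%, and in regions with CTCF in wild-type and ΔSCC4 cells only it was 3.56% (1.88 to 6.62).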

How the results depend on the processing

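Alternatives chosen after seeing the data were not counted here. Under 9 alternative treatments, or 10 for gene starts, the members had lower shares than regions found in all 4 genotypes each time. This held for SMC1, the motif, CpG in the match and gene starts. Their motif and lineage SMC1 shares were higher each time than those of regions in wild-type and ΔSCC4 only. Where a −log10 q of 10 was asked of the members alone, the groups compared kept the full lists, so the thresholds were unlike. With all lists at a −log10 q of at least 5, SMC1 was at 0.846% (wild-type) and 0.592% (ΔSCC4), the motif at 68.6% and the median fold enrichments at 6.54 (ΔWAPL) and 6.39 (ΔWAPL/ΔSCC4). At 10, SMC1 was at 0.482% (wild-type), 19.4% (ΔWAPL), 0.214% (ΔSCC4) and 8.09% (ΔWAPL/ΔSCC4), the motif at 76.1%, CpG at 29.5% and the fold enrichments at 8.46 and 8.35. At a fold enrichment of at least 5, SMC1 was at 0.743%, 21.6%, 0.418% and 12.1% in the same order, the motif at 69.5%, adjacent members at 9.15% and the fold enrichments at 6.75 and 6.62. With a −log10 q of 10 asked of the members alone, 454 remained, with SMC1 at 0.881% (wild-type), 52.6% (ΔWAPL) and 34.4% (ΔWAPL/ΔSCC4), the motif at 72.2%, gene starts at 10.6%, adjacent members at 3.96% and fold enrichments of 8.56 and 8.24. With lists of equal length the 1015 members had SMC1 at 0.296%, 8.28% and 6.31% in these genotypes, the motif at 73.3%, CpG at 29.1%, gene starts at 12.1%, adjacent members at 8.08% and fold enrichments of 8.05 and 7.81.

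A motif threshold reached by 1% of flanks gave 42.2%, starts within 5 kb 34% and protein-coding starts 10.9%, and another member lay within 100 kb of 22.4%. The median −log10 q was 8.06 (ΔWAPL) and 7.22 (ΔWAPL/ΔSCC4). Among alternatives chosen after seeing the data, members within their quartiles of strength had SMC1 at 22.1% (ΔWAPL), 0.645% (ΔSCC4) and 13.6% (ΔWAPL/ΔSCC4), and the motif at 66.1%, above the 63.2% of regions in all 4 genotypes there. From the lowest to the highest GC group, CpG was at 16.9%, 21.4%, 34.3% and 41.9%. Gene starts were at 8.81% in the first, 17.2% in the third and 25.3% in the fourth, SMC1 in ΔWAPL at 21.4%, 33.8% and 33% in the same groups, and SMC1 in ΔWAPL/ΔSCC4 at 17.8% in the second. In the fourth, SMC1 was at 1.04% (wild-type), 0.626% (ΔSCC4) and 13.2% (ΔWAPL/ΔSCC4). The cause of these shifts was not tested beyond what the settings themselves changed.

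No paired analysis was possible because each genotype and antibody had 1 library, and for the same reason no replicate could be left out. Members were near the calling limit, with 15 and 14 reads at the median summit, so an absent peak is compatible with binding below that limit.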

Other observations

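At the median, the members lay closer to CTCF sites found in all 4 genotypes than the groups compared here. Their upper quartile, however, was above that of regions in all 4 genotypes. The nearest such site lay 17.7 kb away at the median (quartiles 6.92 to 52.4), and 501 members (18.2%) had one within 5 kb. Regions in all 4 genotypes were 19.5 kb (7.76 to 45.7) from the next of their kind, and 16.3% had one within 5 kb. The medians were 26.1 kb for regions in wild-type and ΔSCC4 cells only and 29.1 kb for those in ΔWAPL/ΔSCC4 alone, with 11.5% and 8.23% within 5 kb. Loop anchors often carry CTCF motifs that point toward each other. In the direction of its motif, the next matched site found in all 4 genotypes pointed back at 879 of 1781 members (49.4%, 47.0 to 51.7), at a median distance of 67.3 kb. For regions in all 4 genotypes this share was 49.6% (49.0 to 50.2), and for regions called in ΔWAPL/ΔSCC4 alone it was 57.2% (55.0 to 59.4). In the regions with CTCF in wild-type and ΔSCC4 cells only, it was 69 of 114 (60.5%, 51.4 to 69.0).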
